A study of Mus musculus with 19 samples.

Results

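Chemokines are small secreted proteins that guide the movement of leukocytes and other cells, and 10 of their genes in the mouse were described here across 4 groups of arrays: Ccl2, Ccl5, Ccl7, Ccl8, Cxcl1, Cxcl5, Cxcl9, Cxcl10, Cxcl11 and Cxcl12. The members were the array probes that carry one of these names. They numbered 13 of the 41174 probes on the array and 10 of its 27793 gene names. The genes were chosen by their values in both comparisons of these arrays, so their levels and differences are given as a description with no p-value, and a count of them past a threshold stands only beside the share of all genes and supports nothing. Ccl5, Ccl7 and Cxcl12 each had 2 probes, and probe 1 is the one with the higher mean over all arrays.

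The study compared C2C12 cells, an established line of mouse myoblasts, with soleus muscle of mice, 1 array per sample. The WT cells (6 arrays) held the empty plasmids, and the HDAC4&5 cells (6 arrays) stably expressed human wild-type HDAC4 from pIRES neo3 and human wild-type HDAC5 from pIRES hyg3. Both had been selected with Hygromycin B and Geneticin at 500 µg/ml each and were harvested 48 h after seeding. Soleus was taken from 12-week-old male C57BL6J mice after a 5 h fast, from heterozygous littermates (Con, genotype db -/+, 3 arrays) and from diabetic obese mice (db, genotype db +/+, 4 arrays). The db mice lack leptin receptor signalling in the whole body, so their muscle is no model of HDAC4 and 5 alone. The methods describe groups of 3 biological replicates, fewer than the 6 or 4 arrays of WT, HDAC4&5 and db, and the labels do not say which arrays would share a culture or mouse, nor whether cultures came from separate transfections. The spread between arrays may thus be partly technical, and p-values over them may be too small. Fewer cells of a type and less RNA per cell cannot be told apart in whole soleus.

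Each chemokine binds G protein-coupled receptors on its target cells. CC chemokines such as Ccl2 and Ccl7 draw monocytes. CXC chemokines such as Cxcl1 and Cxcl5 draw neutrophils through Cxcr2, and Cxcl9, Cxcl10 and Cxcl11 draw activated T cells through Cxcr3. Cxcl12 is a homeostatic chemokine that acts through Cxcr4 and is taken up by the scavenger Ackr3. Muscle cells release several of these ligands during injury and regeneration. Transcription of the inflammatory members is known to be induced through NF-kB, and that of Cxcl9, Cxcl10 and Cxcl11 through interferon.

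Levels are log2 processed intensities relative to the 75th percentile of the array, so 0 stands for the percentile itself and 1 for a doubling. That percentile was 564.3 to 1691.3 intensity units on WT arrays, 493.8 to 872.7 on HDAC4&5 arrays, 153.4 to 555.1 on Con arrays and 179.7 to 686.4 on db arrays, and 46.8% to 57.5% of probes were well above background. In soleus the percentile went with the slide. It was 153.4 to 231.6 on the slide of Con 1 and 2 with db 1 and 2. On the slide of Con 3 with db 3 and 4 it was 555.1 to 686.4. The lowest level of a probe well above background was -6.14 to -4.57 on cell arrays and -4.59 to -3.30 on soleus arrays, so dim genes were harder to measure in muscle. The mouse Hdac4 probe differed by -0.05 (SE 0.03) and the mouse Hdac5 probe by 1.42 (SE 0.30) between HDAC4&5 and WT cells, but these probes were not designed for the human plasmids and check nothing about them. Of 12 skeletal muscle markers, 11 fell and 1, Myh7, rose in HDAC4&5 cells (limma, adjusted p under the threshold of 0.05). Of all 14104 tested genes 32.8% fell and 36.5% rose. The muscle regulator Myod1 fell at least 261-fold, from 6 of 6 arrays well above background to none, so the HDAC4&5 cells lacked a defining marker of the labelled cell type.

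In HDAC4&5 cells 12 of the 13 chemokine probes were higher than in WT cells with no overlap between the groups, and the exception was Cxcl9. Of the 10 genes, 8 were bright enough for the fit across all genes, and the 8 fell among the genes past its threshold with a higher level. As this comparison is treated as used in their choice, that count supports nothing. Across the array 69.3% of 14104 tested genes passed, 36.5% higher and 32.8% lower, and 28.2% did not overlap and were higher against 26.3% that did not overlap and were lower. Nothing is read from the chemokine counts. The 8 differences ran from 2.74 to 7.05 with a median of 5.46, while the median over all tested genes was 0.05.

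**Figure D1:**
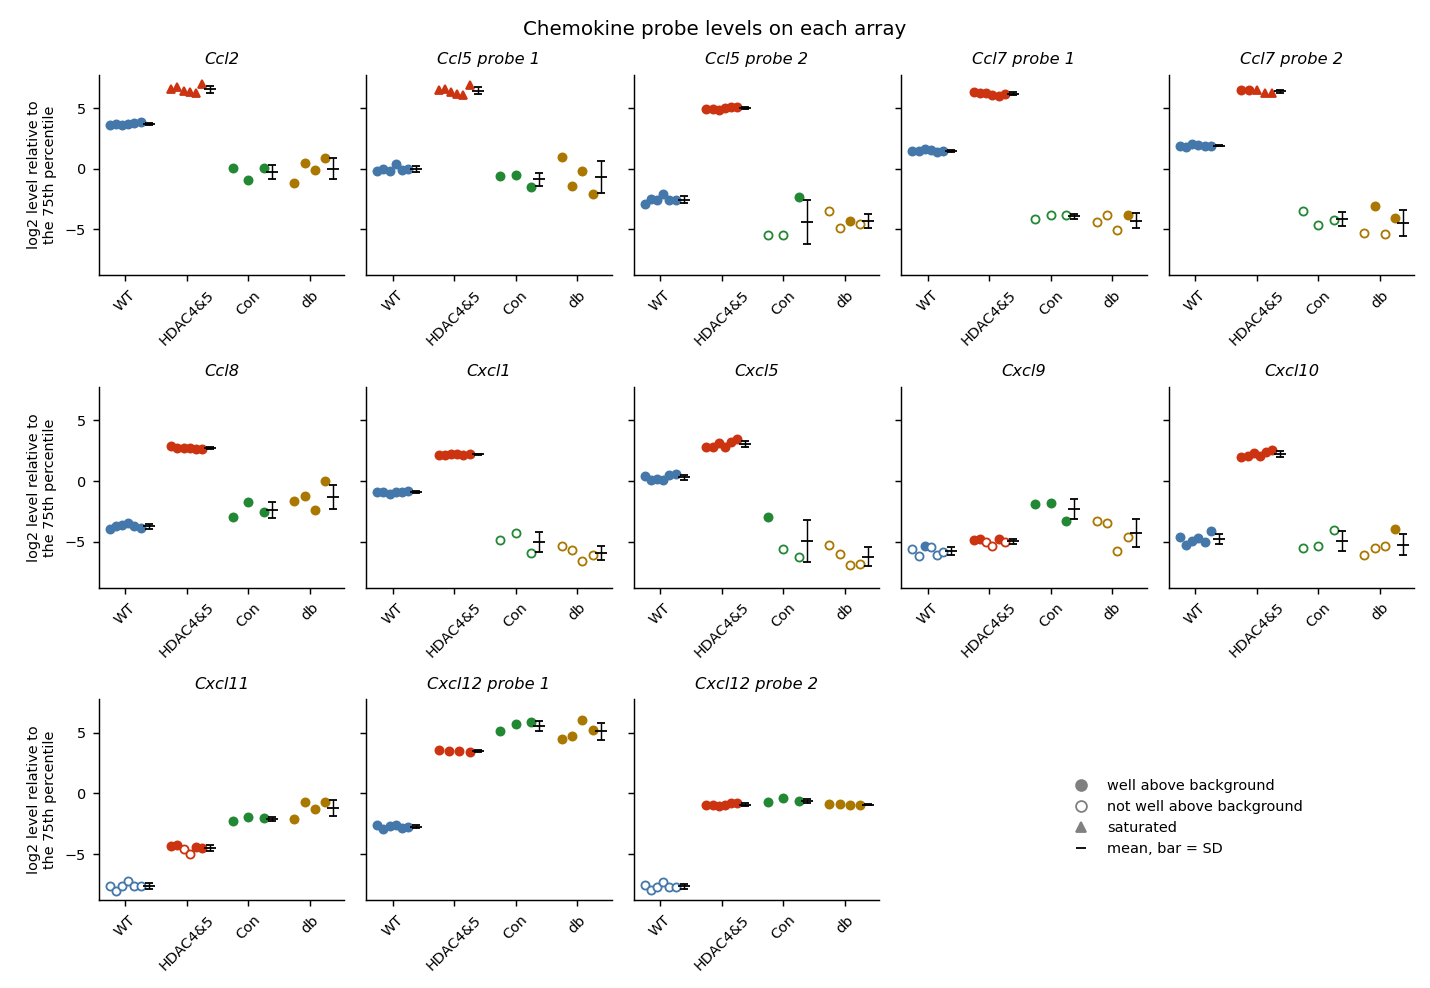
Log2 level relative to the 75th percentile (y axis) of each chemokine probe on each array of the 4 groups (x axis). Filled circles are well above background, open circles are not, triangles are saturated, and dashes with bars are the mean and SD; 3 spots marked as outliers are not drawn (1 of Ccl7 probe 2 and 2 of Cxcl12 probe 1). HDAC4&5 points lie above WT points for every probe except Cxcl9, and both Cxcl12 probes have their highest mean in Con.

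Among the CC ligands, Ccl2, the main attractant of monocytes through Ccr2, was already above the 75th percentile in WT cells. Its probe (chr11:81850650-81850709, mm9, 10 spots per array) read 3.58, 3.69 and 3.84 (lowest, median, highest) in WT cells and 6.21, 6.50 and 7.01 in HDAC4&5 cells. All 6 HDAC4&5 arrays were saturated there, so the level was at least 7.17-fold higher (log2 difference 2.84, SE 0.13). The arrays of the 2 groups did not overlap.

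Ccl7, a monocyte attractant that shares Ccr2 with Ccl2, rose from a lowest, median and highest level of 1.35, 1.48 and 1.61 to 6.02, 6.21 and 6.33 at probe 1 (chr11:81860504-81860563). That is a log2 difference of 4.70 (SE 0.06), or 26-fold. Probe 2, at chr11:81860656-81860715, gave 4.48 (SE 0.06) over 6 WT and 5 HDAC4&5 arrays, of which 3 were saturated and 1 more had been dropped as an outlier spot. The groups were apart at both probes, and the HDAC4&5 values came close to the top of the scale. Because of the saturated arrays, the difference at probe 2 may be too small.

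Ccl8 was dim in WT cells at -3.96, -3.71 and -3.44 and lay at 2.61, 2.75 and 2.86 in HDAC4&5 cells (chr11:81930108-81930167). The difference of 6.46 (SE 0.09) is 88.0-fold, and all 12 arrays were well above background. The Ccl8 probe shared a run of 13 bases with a probe of Ccl12, a near neighbour, which was the longest run that a chemokine probe described here shared with a probe of another chemokine gene. The Ccl12 probe itself never stood well above background in C2C12 cells.

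Ccl5, which attracts T cells and monocytes, went from near the 75th percentile to the top of the scale. Probe 1 (chr11:83339296-83339355) read -0.23, -0.07 and 0.38 in WT cells and 6.09, 6.41 and 6.92 in HDAC4&5 cells, with all 6 of the latter saturated, so that the level was at least 87.9-fold higher. Probe 2, which the files place nowhere in the genome, was saturated on no array and gave -2.96, -2.61 and -2.10 against 4.87, 4.99 and 5.11. Its difference of 7.57 (SE 0.12), or 189.7-fold, was larger than the 6.46 of the saturated probe.

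The neutrophil attractants Cxcl1 and Cxcl5 were higher in HDAC4&5 cells by less than the median of the 8. Cxcl1 (chr5:91321845-91321904) read -1.03, -0.89 and -0.81 in WT cells and 2.16, 2.20 and 2.26 in HDAC4&5 cells, a difference of 3.11 (SE 0.04) or 8.61-fold. Cxcl5 (chr5:91190205-91190264) read 0.11, 0.28 and 0.58 against 2.83, 2.99 and 3.48, a difference of 2.74 (SE 0.14) or 6.69-fold. Both were well above background on all 12 arrays, with no overlap between groups.

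The ligands of Cxcr3 differed among themselves. Cxcl10 had the largest difference of the 8 tested probes, of which those of Ccl2 and Ccl5 give only a bound. The untested probe 2 of Ccl5, saturated on no array, differed by more, 7.57. Cxcl10 read -5.27, -4.83 and -4.13 in WT cells and 1.95, 2.23 and 2.59 in HDAC4&5 cells (chr5:92775781-92775840). The change of 7.05 (SE 0.19), 133-fold, started from a WT level near the lowest measurable one. Cxcl11 (chr5:92790123-92790274, 152 bases for a probe of 60, so that the probe spans an intron) was well above background on none of the 6 WT arrays and on 4 of the 6 HDAC4&5 arrays. Its lowest, median and highest levels were -8.06, -7.62 and -7.24 against -4.98, -4.47 and -4.24, at least 2.28-fold higher. Cxcl9 (chr5:92752191-92752250) was well above background on 1 WT and 3 HDAC4&5 arrays, at -6.17, -5.73 and -5.38 against -5.39, -4.97 and -4.77, and its groups overlapped. The difference of 0.77 (SE 0.17) ran from 0.20 to 1.09 within slides, and neither Cxcl9 nor Cxcl11 was bright enough to be tested.

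The 2 probes of Cxcl12 are listed under different RefSeq transcripts. Probe 1 (chr6:117131227-117131286) read -2.91, -2.71 and -2.59 on the 6 WT arrays and 3.39, 3.51 and 3.55 on 4 HDAC4&5 arrays, since the spots of the other two were marked as outliers. The difference was 6.22 (SE 0.07), or 74.5-fold, and 6.26 with those spots kept. Probe 2 (chr6:117124474-117124533) was well above background on no WT array and on all 6 HDAC4&5 arrays, where it read -1.03, -0.98 and -0.77 against -7.97, -7.73 and -7.33. This is at least 27.55-fold higher.

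**Figure D2:**
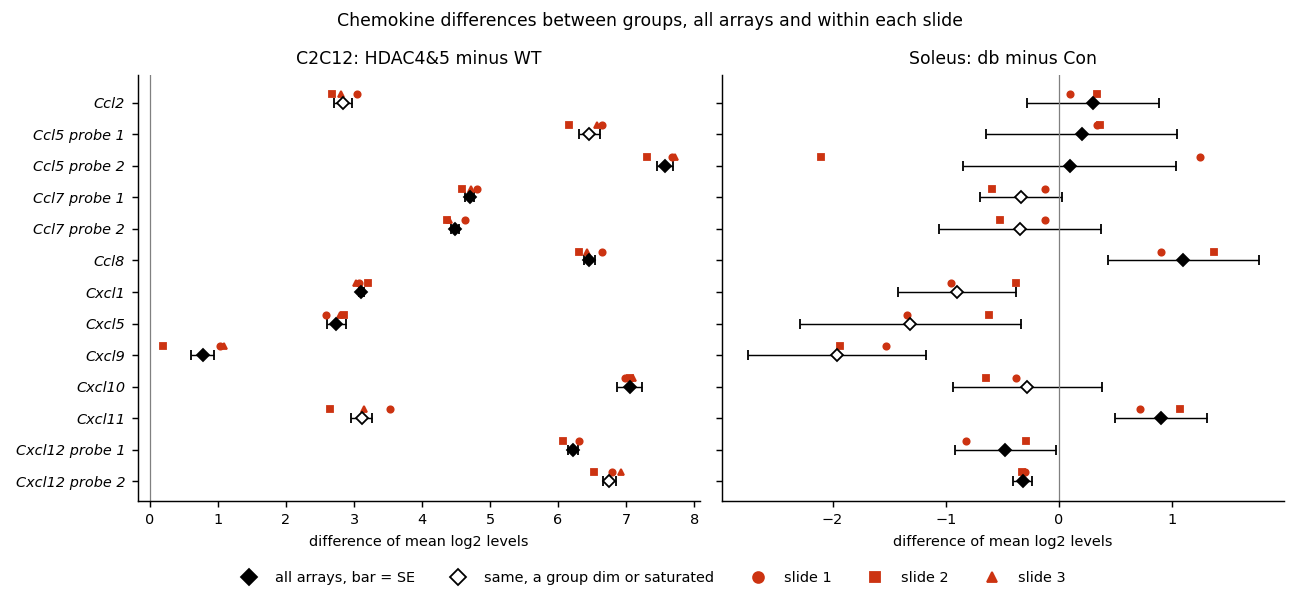
Difference of mean log2 levels (x axis) for each chemokine probe (y axis), HDAC4&5 minus WT in C2C12 cells on the left and db minus Con in soleus on the right. Diamonds are all arrays with the pooled SE, open where a group was well above background on no array or saturated on all, and red symbols are the differences within each slide. In cells all probes lie above 0 on every slide, while in soleus they lie on both sides of 0.

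The C2C12 arrays lay on 3 slides with 2 arrays of each group on each. Within slides the difference was 2.67 to 3.04 for Ccl2, 4.58 to 4.80 for Ccl7 probe 1, 6.31 to 6.64 for Ccl8 and 6.99 to 7.11 for Cxcl10. It was 3.03 to 3.21 for Cxcl1 and 2.59 to 2.85 for Cxcl5. For Cxcl12 probe 1, measured in both groups on 2 slides, it was 6.07 and 6.31. No slide by itself carried a difference of the 8 tested genes.

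Promoter sequences, which run from 250 bases before the start of transcription to 50 after it, were at hand in RefSeq (GRCm38.p6) for 5 of the 10 genes: Ccl8, Cxcl1, Cxcl9, Cxcl10 and Cxcl12. They were searched on both strands for GAAANNGAA, the core of the interferon-stimulated response element, and for the NF-kB consensus. The first occurs in 8.56% of 32851 promoters and the second in 4.51%. Of the 30 promoters of the interferon list 36.7% held the first, and of the 37 promoters (a gene may have several) of the NF-kB list 29.7% held the second. Among the 5 chemokine promoters, 2 (Cxcl9 and Cxcl10) held the interferon core, 2 (Cxcl1 and Cxcl10) held the NF-kB consensus, and only that of Cxcl10 held both.

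Those of Cxcl10, Cxcl1 and Ccl8 are shown because they hold both motifs, 1 motif and neither, for 3 genes that were all higher in HDAC4&5 cells. Capitals mark the motif matches, 5′ to 3′.
Cxcl10 promoter, chr5:92348840-92349139, minus strand: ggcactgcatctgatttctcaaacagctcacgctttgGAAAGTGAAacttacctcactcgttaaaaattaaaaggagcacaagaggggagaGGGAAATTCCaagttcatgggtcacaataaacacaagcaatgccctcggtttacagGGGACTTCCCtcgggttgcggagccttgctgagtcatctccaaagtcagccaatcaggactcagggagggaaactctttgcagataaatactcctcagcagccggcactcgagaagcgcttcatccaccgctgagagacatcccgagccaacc
Cxcl1 promoter, chr5:90890995-90891294, plus strand: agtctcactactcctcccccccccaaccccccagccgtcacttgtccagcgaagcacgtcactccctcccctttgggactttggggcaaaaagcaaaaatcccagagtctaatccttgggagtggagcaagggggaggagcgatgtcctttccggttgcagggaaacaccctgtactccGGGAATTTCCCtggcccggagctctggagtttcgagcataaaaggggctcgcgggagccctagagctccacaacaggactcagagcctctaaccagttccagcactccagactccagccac
Ccl8 promoter, chr11:82114935-82115234, plus strand: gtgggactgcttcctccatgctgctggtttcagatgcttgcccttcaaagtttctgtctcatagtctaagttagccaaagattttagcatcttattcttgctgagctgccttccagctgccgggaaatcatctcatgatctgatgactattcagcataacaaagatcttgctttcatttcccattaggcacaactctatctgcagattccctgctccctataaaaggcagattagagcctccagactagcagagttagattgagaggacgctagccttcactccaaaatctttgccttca
In Cxcl10 the interferon core lies 213 to 205 bases before the start and the NF-kB matches at 159 to 150 and 103 to 94. In Cxcl1 the NF-kB match is read on both strands and covers 71 to 61. A match is a run of letters and no measure of binding. Ccl8 had no match in its window, and sequence outside the windows was not searched. The part of either motif in the differences was not tested.

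The chemokine genes lie in clusters, and the other ligands of each cluster were read on the same arrays. In the run from Ccl2 to Ccl1 on chromosome 11 (139.7 kb, 6 genes), Ccl2, Ccl7 and Ccl8 were higher in HDAC4&5 cells and so was Ccl11, the eosinophil attractant eotaxin. Ccl11 rose by 2.92 (adjusted p = 0.000138, limma), although it was well above background on 1 of 6 WT arrays and the groups overlapped. Ccl12 and Ccl1 stayed near background in both groups. In the run from Ccl5 to Ccl4 (138.8 kb, 5 genes), Ccl4, an attractant of monocytes and T cells, rose at least 10.1-fold (adjusted p = 2.8e-08) and Ccl9 rose by 1.08 (adjusted p = 2.22e-06), while Ccl6 and Ccl3 were dim throughout.

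On chromosome 5 the run from Cxcl5 to Cxcl2 spans 144.4 kb and 7 genes. Cxcl5, Cxcl1 and Ppbp, the precursor of a platelet chemokine, were higher in HDAC4&5 cells, Ppbp by 1.88 (adjusted p = 8.28e-10). Pf4, Cxcl3, Cxcl15 and Cxcl2 were well above background on no array of either group. Cxcl2 and Cxcl3 are the nearest relatives of Cxcl1 and share its receptor Cxcr2. In the run from Cxcl9 to Cxcl11 (38.1 kb, 3 genes) all of the genes belong to the 10. Cxcl10 in its middle differed by 7.05, while for Cxcl11, dim in WT cells, only the bound of 2.28-fold is known.

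Of the 27 other chemokine ligands on the array, 8 could be tested in C2C12 cells, 6 rose and 1 fell, with a median difference of 1.85. Among all tested genes 36.5% rose and 32.8% fell. Ccl4 and Ccl11 had the largest rises as read, but they were well above background on 0 and 1 of 6 WT arrays. Next was Ccl25, a thymus and gut chemokine that binds Ccr9, from 0.72 ± 0.08 to 3.19 ± 0.07 (SD, n = 6 each, limma adjusted p = 1.55e-13). Ccl17, a ligand of Ccr4, fell by 0.27 (adjusted p = 0.00924), and Ccl19 differed by -0.52 (adjusted p = 0.074). The other 19 did not pass the filter on dim probes. Of the 27, 16 were well above background on no WT array and 16 on no HDAC4&5 array. The sets were not the same, since Ccl4 was in the first only and Xcl1 in the second only.

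The receptors of these ligands were mostly dim. Of 24 receptor genes on the array 15 were well above background on no WT array and 17 on no HDAC4&5 array. Ccr2 was above it on no array of WT or HDAC4&5 cells, and Cxcr2 and Cxcr3 were so on none of the WT arrays and 1 of the 6 HDAC4&5 arrays. Of the 6 tested receptors 2 rose and 3 fell, beside 36.5% and 32.8% of all tested genes, with a median difference of -1.57.

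The 2 receptors of Cxcl12 both fell. The scavenger Ackr3 went from 3.53 ± 0.01 (SD, n = 4, since the spots of 2 WT arrays were marked as outliers) to -0.93 ± 0.09 (n = 6), and fell by 4.45 (adjusted p = 1.03e-13). Cxcr4, the signalling receptor, read -4.19 ± 0.42 (n = 5) in WT cells and was well above background on no HDAC4&5 array, at least 2.28-fold lower (adjusted p = 6.95e-05). Cxcr6, the receptor of Cxcl16, was at least 2.42-fold lower (adjusted p = 7.81e-09). Ccrl2, an atypical receptor that does not signal, rose by 3.54 (adjusted p = 1.33e-12), and Ackr2, which scavenges inflammatory CC chemokines such as Ccl2 and Ccl5, rose at least 2.56-fold (adjusted p = 2.48e-08). With the stricter filter, a signal on every array of both groups, Ackr3 was the 1 receptor called, since the others were not tested.

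Lists of NF-kB and interferon genes were read for the pathways known to induce chemokines. Of 26 tested genes of the NF-kB list 13 rose and 8 fell, beside 36.5% and 32.8% of all tested genes. The median difference of the list was 0.17. The 3 largest rises were those of Saa3, an acute-phase protein, by 3.33 (adjusted p = 5.19e-13), Il6 by 1.10 (adjusted p = 4.94e-05) and Csf1, the macrophage growth factor, by 1.04 (adjusted p = 3.51e-08). Bcl3, an atypical inhibitor of NF-kB, fell by 4.27 (adjusted p = 4.23e-13), the adhesion molecule Vcam1 by 2.64 (adjusted p = 8.02e-14) and Tnfaip3, a feedback inhibitor, by 1.53 (adjusted p = 3.69e-11). The part of NF-kB in the chemokine differences was not tested.

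Of 29 tested genes of the interferon list 22 rose and 6 fell, beside 36.5% and 32.8% of all tested genes. The median difference of the list was 2.55. Usp18 rose by 9.29 (adjusted p = 6.46e-11), Ifit3 by 8.75 (adjusted p = 8.2e-12) and Ifit1 by 8.24 (adjusted p = 1.97e-10), all of them interferon-induced genes. Their WT means were -4.82, -3.66 and -5.45. That of Ifit1 lay within the range of the lowest levels well above background on WT arrays, -6.14 to -5.20. The 3 largest falls were in the signalling chain itself: Tyk2 by 1.18 (adjusted p = 6.79e-07), the receptor subunit Ifnar1 by 0.56 (adjusted p = 4.25e-07) and Irf3 by 0.55 (adjusted p = 0.000317). These lists were written with results of the same arrays known, and no test set one list against another.

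**Figure D3:**
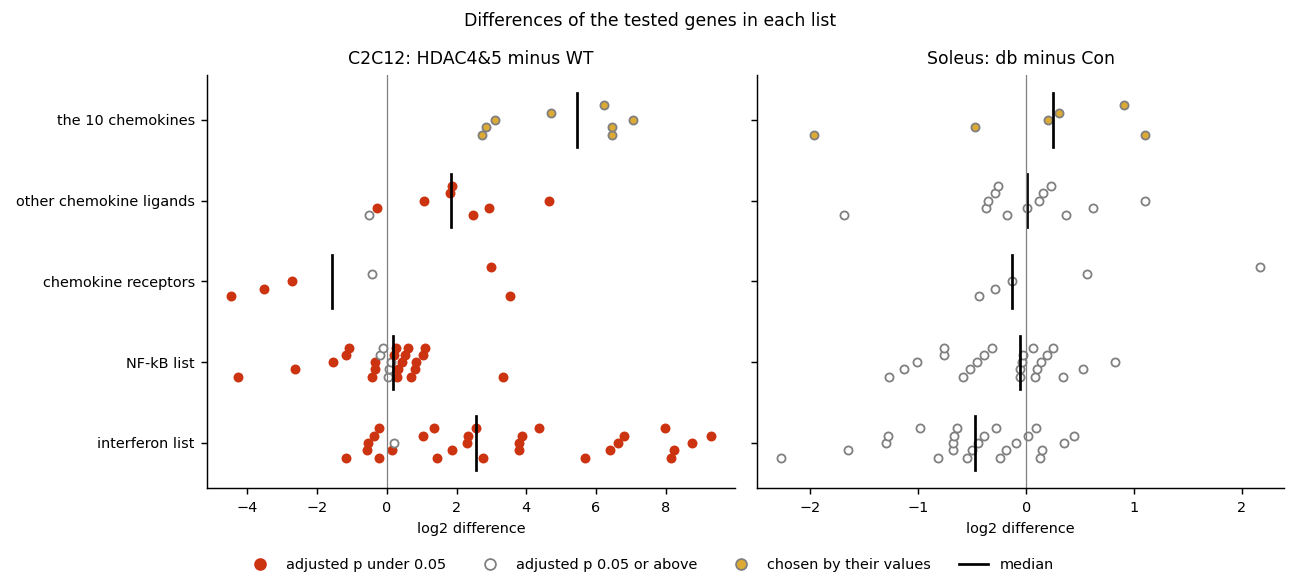
Log2 difference (x axis) of each tested gene of 5 lists (y axis), HDAC4&5 minus WT on the left and db minus Con on the right. Red points passed the adjusted p of 0.05, open points did not, yellow points are those of the 10 chemokines that were bright enough (8 and 6) and black lines are medians. In cells the medians are 5.46 for the chemokines, 0.17 for the NF-kB list and 2.55 for the interferon list, and in soleus no gene passed.

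Leukocytes make many of these ligands, and some of their markers were near background in the cells while others were not. Cd14 was bright, at a mean of 1.00 in WT and 2.63 in HDAC4&5 cells. In the leukocyte list 4 markers were well above background on all WT arrays and 3 on all HDAC4&5 arrays. Of 21 markers on the array 11 were well above background on no WT array and 11 on no HDAC4&5 array. The sets were not the same, since Lyz2 was in the first only. Ptprc (CD45), with 0 of 6 and 0 of 6 arrays, Itgam and Csf1r were in both. The summed level of the list was 1.13 to 1.43 on WT arrays and 2.57 to 2.87 on HDAC4&5 arrays. It was made up mainly of Cd14, which rose by 1.63 (adjusted p = 4.83e-10). Lyz2 rose at least 4.22-fold (adjusted p = 1.11e-08) and Cd68 fell by 0.42 (adjusted p = 0.000178). The fibroblast list, at 6.26 to 7.14 in WT and 6.59 to 6.82 in HDAC4&5 cells, had 4 rises and 2 falls. Across all tested genes 36.5% rose and 32.8% fell. Col1a1 rose by 3.34, Pdgfra by 2.18 and Fbln1 by 2.16, while Col1a2 fell by 2.43 and Dcn fell by 1.32. Fabp4 was the adipocyte marker that could be tested and rose by 2.14, and no endothelial marker was bright enough.

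In soleus muscle none of the 6 tested chemokines passed the adjusted p in limma, and 0.0077% of 12989 genes, 1 gene, did so across the array. At an unadjusted p under 0.05 the count of the 6 was 1, Cxcl9, beside 6.34% of all tested genes, and Cxcl9 had passed the filter through its Con arrays alone. The count was 0 with the methods' t-test after adjustment. Of all tested genes 4.97% were higher and 5.16% lower in db muscle without overlap, and among the 6 chemokines Cxcl9 was lower without overlap. Their median difference was 0.25 against -0.02 over all genes. Ccl7, Cxcl1, Cxcl5 and Cxcl10 were too dim to be tested.

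Of the probes that stood for the 6 genes, Cxcl9 was the one whose soleus groups did not overlap. It read -1.87, -1.85 and -3.27 in the 3 Con mice and -3.28, -3.49, -5.77 and -4.64 in the 4 db mice. The highest db value lay just below the lowest Con value. The probe was well above background on 3 of 3 Con and 0 of 4 db arrays. With the levels used here it was at least 3.12-fold lower in db muscle, but some alternatives gave smaller differences. With normexp background correction the log2 difference was -0.93, and with the matrix that the authors deposited it was -1.16. The log2 difference of -1.96 (SE 0.79) was -1.53 within the slide that held Con 1 and 2 with db 1 and 2, and -1.93 within the slide that held Con 3 with db 3 and 4.

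The other members measured in soleus overlapped between the groups at probe 1. Cxcl11 read -2.26, -1.96 and -2.06 in Con and -2.11, -0.67, -1.29 and -0.69 in db muscle, a difference of 0.90 (SE 0.41). Ccl8 read -3.00, -1.70 and -2.57 in Con and -1.62, -1.27, -2.38 and -0.01 in db muscle, a difference of 1.10 (SE 0.67). In both genes 3 of the 4 db values lay above the highest Con value. Cxcl9 and Cxcl11, which share Cxcr3, had differences of opposite sign, and neither passed the adjusted p.

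Ccl2 read 0.05, -0.98 and 0.03 in Con and -1.17, 0.43, -0.10 and 0.84 in db muscle, and Ccl5 read -0.63, -0.56 and -1.49 against 0.95, -1.48, -0.17 and -2.09. The spread in the db group was wider than the differences of 0.30 (SE 0.59) and 0.20 (SE 0.84). Without Con 2 the Ccl2 difference was -0.04, and that of Ccl5 was -0.10 without Con 3 and -0.35 without db 1, so neither had a settled sign. Ccl5 probe 2 was well above background on 1 Con and 1 db array.

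Cxcl12 was bright in soleus, at 5.15, 5.71 and 5.92 in Con and 4.51, 4.71, 6.05 and 5.20 in db muscle at probe 1, a difference of -0.47 (SE 0.45). Probe 2 read -0.73, -0.41 and -0.64 in Con and -0.85, -0.89, -0.94 and -0.98 in db muscle. Its difference of -0.32 (SE 0.09) was smaller than that of probe 1 but the groups did not overlap, and it was -0.30 and -0.32 within the slides. Probe 2 did not stand for the gene and so was not among those tested.

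Of the dim members in soleus, Ccl7 probe 1 was well above background on 0 Con and 1 db array, Cxcl10 on 0 and 1, Cxcl5 on 1 and 0, and Cxcl1 on none. No fold is given for them. Cxcl10 spanned -5.50 to -4.04 in Con and -6.11 to -3.97 in db muscle, which differs by less than the spread between mice.

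The other parts of the chemokine system gave no call in soleus. None of 13 other ligands, 5 receptors, 23 genes of the NF-kB list and 24 of the interferon list passed the adjusted p in limma or with the methods' t-test after adjustment. At an unadjusted p under 0.05 the counts were 1, 1, 2 and 4, beside 6.34% of all tested genes. The medians were 0.01, -0.14, -0.05 and -0.48, against -0.02 over all genes. Ackr3 read 2.64 ± 0.36 (SD, n = 3) in Con and 2.51 ± 0.20 (n = 4) in db muscle, Cxcr4 was well above background on 1 array of each group, Cxcr3 on 1 of 3 and 3 of 4, Cxcr2 on 0 and 1, and Ccr2 on none. Ackr4, a scavenger of CC ligands such as Ccl19, read -3.27 ± 0.27 and -1.10 ± 0.45 (SD, n = 3 and 4) without overlap (limma, adjusted p = 0.147) and passed with the slide as a block.

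Markers of other cells in the muscle were read beside these values. Of 13 tested leukocyte markers 0 passed, with a median of 0.00 and a summed level of 5.38 to 6.99 on Con and 5.56 to 6.91 on db arrays. The endothelial list, with 8 of 8 markers well above background, had a summed level of 5.56 to 5.61 in Con and 4.40 to 5.02 in db muscle, so that the groups did not overlap, and its median was -0.74 with 0 of 8 passing. The fibroblast list lay at 9.04 to 9.23 and 8.32 to 8.86, again apart, the muscle list at 10.2 to 11.4 and 9.86 to 11.2, and the adipocyte list at 7.81 to 8.78 and 7.40 to 8.27. Endothelial cells are a known source of Cxcl9 and Cxcl12, and the part of these cells in the lower values in db muscle was not tested.

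Across the 4 groups, 9 of the 13 probes were highest in HDAC4&5 cells, 3 in Con and 1 in db muscle. Ccl2, Ccl7, Cxcl1 and Cxcl5 ran from HDAC4&5 cells over WT cells to soleus, with no overlap between the cell groups or between WT cells and muscle, and the soleus groups overlapping. Ccl5 had the same order at both probes, but WT cells overlapped with muscle, at probe 2 through 1 Con array. Ccl8 ran from HDAC4&5 cells over db and Con muscle, which overlapped, to WT cells. Cxcl10 was apart in HDAC4&5 cells, and its other three groups overlapped with their neighbours in the order.

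Cxcl11 ran from db and Con muscle, which overlapped, over HDAC4&5 cells to WT cells. Cxcl12 probe 1 ran from Con and db muscle, which overlapped, over HDAC4&5 cells to WT cells, with a gap between each of the latter. At probe 2 the order was the same, but HDAC4&5 cells overlapped with db muscle. Cxcl9 was highest in Con muscle, and its other three groups overlapped with their neighbours. Cells and muscle were extracted by different protocols and were scaled to their own percentiles, so this order is a description of levels as scaled here.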

How the data were processed

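RNA of 12 C2C12 cultures and 7 soleus muscles was labelled with 1 dye and read on Agilent arrays of the mouse genome, each sample on an array of its own. The processed intensity, mean and background median intensity of each spot are as the authors deposited them, made with Agilent Feature Extraction 9.5.1.1 per the file headers, which also give probe positions on mm9. A matrix that the authors deposited gives each processed intensity as a ratio to a constant of its array. Among its 19 columns, 15 lay within 0.01 of a scanner file, and the columns named db 1 and db 2 matched the scanner files of db 3 and db 4, so the matrix served by group only, as an alternative. The columns outside 0.01 were all of soleus and lay nearest to Con 1, Con 2, db 1 and db 2, which shared a slide. No exon or UTR annotation was used here.

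Levels are log2 processed intensities minus the log2 of the array's 75th percentile over non-control spots, with outlier spots left out, saturated spots kept and spots of a probe averaged. Symbols were updated through RefSeq accessions (27198 probes matched, 2694 names changed), and a gene was read from its brightest probe on average. A gene was kept if all arrays of 1 or both compared groups had it well above background, and was then tested with limma 3.58.1 in R 4.3.3, each comparison on its own arrays, with Benjamini-Hochberg adjustment at 0.05. SEs are pooled from the SDs of both groups. The procedure was tested on simulated data. For folds given as "at least", a group dim on every array had its readings raised to the array's lowest signal well above background. Readings already above that signal were kept, and a saturated group was left at its reading. Such a fold is a bound for these levels and not for other background corrections. A summed level is the log2 of the summed linear levels of a list.

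The members and lists were chosen with earlier results of these data known. Named outside the members were the 3 largest rises and falls of each list past the adjusted p in cells, any gene past it in soleus, and the receptors Ccr2, Cxcr2, Cxcr3, Cxcr4 and Ackr3. A further receptor of the rule is not reported here. The neighbours in the gene clusters, Ccl19 and Ackr4 are outside that rule and were named after their values were seen. The gene that passed in soleus is Mup1.

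Same-numbered arrays of the compared groups deviated together (r of 0.186 to 0.547 over 6 pairs of cells and 0.426 to 0.691 over 3 pairs of mice). Other arrays of the same slide did so as much (0.193 to 0.528 and 0.333 to 0.743), and arrays of different slides did not (-0.474 to 0.0454 and -0.69 to -0.402), so the number carries the slide. Alternatives were quantile normalization, normexp with an offset of 50, the matrix, no filter and a stricter filter, the mean of a gene's probes, blocks for slide and replicate number, an unadjusted p, the methods' t-test, and leaving out slides or arrays. Keeping outlier spots and averaging the arrays of a group on a slide were added after seeing the data. Arrays give no read depth, and their number limits the precision.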

Additional observations from a re-analysis of the deposited data

Results flagged for a closer look

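One value stood far from the rest of its group. In WT cells the array of replicate 4 read 0.38 for Ccl5 probe 1, the highest of 6 arrays, and its gap to the next array was 0.635 of the whole range of the group. It was still below every HDAC4&5 array. Of 39 groups of levels tested in this way 1 stood out, where chance flags about 1 in 20 and would give 1.95.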

How the results depend on the processing

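In C2C12 cells the replicate block gave 10743 genes over the array and 8 chemokines, a count that supports nothing. It also gave 8 other ligands, 6 receptors, 22 genes of the NF-kB list and 29 of the interferon list. In soleus the replicate block gave 1 gene over the array and 0 in each list, and it changed no count by over 1.5 times. With the arrays of a group on a slide averaged, 3 values against 3, chosen after seeing the data, cells gave 8371 genes over the array, 7 other ligands, 5 receptors, 18 genes of the NF-kB list and 25 of the interferon list. The 5 calls among receptors in cells were 3 with normexp, 2 with the deposited matrix and 1 with the stricter filter, which tests fewer genes. The 1 gene that passed in soleus became 3 with quantile normalization, 0 with normexp, the matrix or the stricter filter, 40 with the slide as a block, 824 at an unadjusted p, 2 with the methods' t-test, and 0 to 2 without 1 array. At an unadjusted p, soleus gave 1 chemokine, 1 other ligand, 1 receptor, 2 genes of the NF-kB list and 4 of the interferon list, and the slide block gave 1 receptor. The cause was not tested. Normexp gave smaller differences in cells, 5.19 for Cxcl10, 5.29 for Ccl8 and 5.47 for Cxcl12, and in soleus -0.93 for Cxcl9 and 0.34 for Cxcl11. Saturation limits Ccl2 and Ccl5 in HDAC4&5 cells, and background limits Cxcl9 and Cxcl11 in cells and Ccl7, Cxcl1, Cxcl5 and Cxcl10 in soleus.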
